A study of Mus musculus with 7 samples.

Results

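The sites described here are TAD anchors at which no Rad21 peak was listed. TAD anchors are the CTCF sites that the authors placed at the ends of topologically associating domains (TADs), stretches of the genome whose contacts fall mostly inside the same stretch. The domain boundaries themselves were not used here, so the class is taken from the authors' list. The members are the TAD anchors of the class list on chromosomes 1 to 19 that shared 0 bp with any pooled Rad21 peak, and they numbered 440 of 5722 TAD anchors, or 7.69%. For comparison, 18.2% of all 51203 listed CTCF sites on these chromosomes had no Rad21 peak. A further 16 such TAD anchors on chromosome X were not counted among the members. The absence of Rad21 chose the members, so their Rad21 values are a description only.

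The lists came from livers of male CD-1 mice (Crl:CD1(ICR)) of 8 weeks of age, with chromatin immunoprecipitation and sequencing (ChIP-seq) for CTCF in 4 libraries and for Rad21 in 3 libraries. No treatment or altered allele is named for any group. The pooled lists held 76683 CTCF and 67369 Rad21 peaks. The authors pooled the reads of each factor before calling peaks, so that each site has 1 value over all libraries, no spread between mice can be given and no p-value is given. Liver holds several cell types, and binding in fewer cells cannot be told apart from weaker binding per cell.

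CTCF is a zinc finger protein that binds a directional DNA motif, and cohesin is a ring complex, with Rad21 as one of its subunits, that is thought to extrude loops of DNA until it meets CTCF. Stag1 and Stag2 are alternative cohesin subunits, each found in a complex with Rad21. Top2b is a topoisomerase that relieves torsion in DNA and is often found beside CTCF and cohesin. An anchor is usually occupied by both CTCF and cohesin, with the 3′ side of the motif facing into the loop.

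The CTCF motif of a site is the best match of the 19-base matrix that the authors used, and it is shown here in capitals, with 5 flanking bases in lower case on either side. Each run is written 5′ to 3′ on the strand of the motif, from the mm9 reference (NCBIM37), and the coordinates are those of the capitals. The members with the highest CTCF score and no overlap with Stag1, Stag2 or Top2b are shown first, since they hold strong CTCF without a listed cohesin peak in either source.
Intergenic member nearest Trim29, chr9:43095194-43095212, + strand: tcacaTCACCGCACGGGGGCGCACgacct
Intergenic member nearest Tlx1, chr19:45249450-45249468, + strand: gcaccTTTCCACAAGGGGGCGCTCtccca
Intergenic member nearest Fli1, chr9:32393081-32393099, + strand: gcataTGTCCAGTAGGGGGCAGACtcccg
Member in an intron of Cdh4, chr2:179612454-179612472, - strand: ggctcTGGCCTCTAGGGGGCACTGcagct

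The member with the highest CTCF score of all and the member with the highest score among those with all 3 of Stag1, Stag2 and Top2b follow, beside a TAD anchor with the highest Rad21 score, which is no member.
Member in an intron of Pfdn4, chr2:170336643-170336661, - strand: agccaCGGCCAGCAGGGGGAGCGCtgggt
Member in a noncoding exon of Polr2i, chr7:31018089-31018107, + strand: aggtgTGGCCACAAGGAGGCAGTGttctt
TAD anchor with Rad21 nearest Eif4b, chr15:101896249-101896267, - strand: ctagaAGGCCACCAGGGGGCAGAGaaggg

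The next set shows a word that many members share. Positions 4 to 15 of the motif, the 12 bases CCAGAAGAGGGC, were identical in 119 of the 440 members. The first of these sites lies in an intron of Wdr65, the second is nearest Psmd4 and the third lies in an intron of Slc27a2.
Wdr65, chr4:118285315-118285333, + strand: cgcagAGGCCAGAAGAGGGCGCCAcatct
Psmd4, chr3:94833434-94833452, - strand: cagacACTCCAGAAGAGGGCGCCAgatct
Slc27a2, chr2:126412539-126412557, + strand: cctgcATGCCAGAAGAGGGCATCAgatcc

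Members were weakly bound by CTCF. The CTCF score is 10 times the −log10 of the q-value of the peak, and its median was 511 in members (95% confidence interval (CI) 473 to 552), against 2660 (2587 to 2735) in the 5282 TAD anchors with a Rad21 peak. Of the 440 members, 433 lay under the median of TAD anchors with Rad21, a share of 98.4% (Wilson 95% CI 96.8 to 99.2). The largest vertical gap between the cumulative curves of these groups (the Kolmogorov-Smirnov distance) was 0.711. The fragments at the summit, recovered from the fold and the p-value of each peak, had a median of 85 in members and 297 in the other TAD anchors. The median fold over local background was 8.72 against 19.8. Over all listed CTCF sites the median score was 830 and the upper quartile 2436, so most listed sites also lay under 2660. All intervals cover counting error only.

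**Figure D1:**
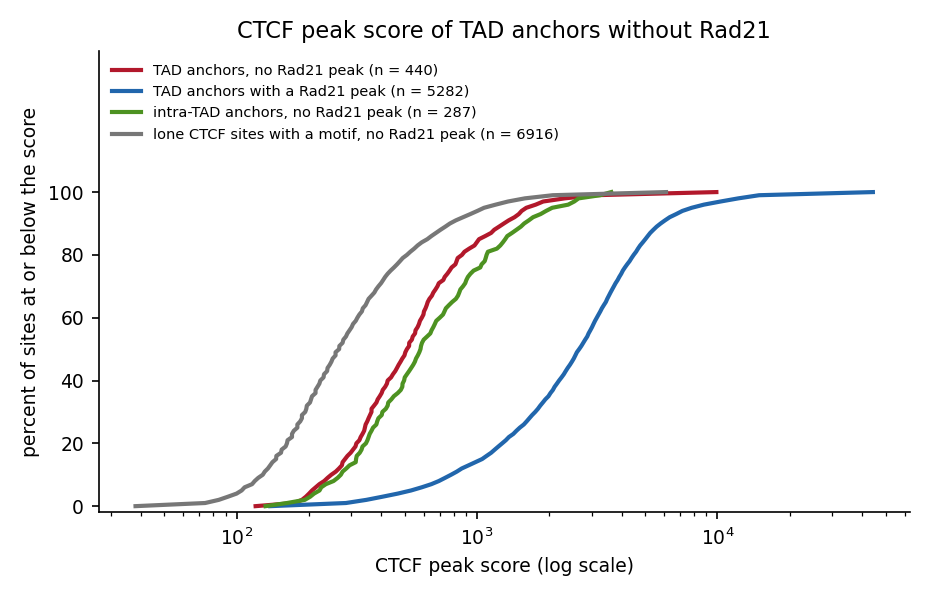
Cumulative percent of sites against CTCF peak score on a log axis, for TAD anchors without Rad21, TAD anchors with Rad21, intra-TAD anchors without Rad21 and lone CTCF sites with a motif and without Rad21. The curve of the 440 members, with a median of 511, lies left of that of TAD anchors with Rad21, with a median of 2660, and close to that of intra-TAD anchors without Rad21, with a median of 582.

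TAD anchors of high CTCF score were rarely members. Members made up 46.8% of the 451 TAD anchors with a score under 500, 23.7% of the 671 with a score of 500 to under 1000 and 1.52% of the 4600 with a score of 1000 or more. Where a Rad21 peak was present its score rose with CTCF score, with medians of 132, 223 and 939.5 in these bins. The lowest Rad21 score in the whole Rad21 list was 16, and the lowest number of fragments at a Rad21 summit was 15. A missing peak therefore means no call at this depth, and weak cohesin below that level was not detectable. Intra-TAD anchors without Rad21, the anchors of loops that the authors predicted inside TADs, had a median CTCF score of 582 (533 to 646, n = 287). Lone CTCF sites, which the authors defined by the lack of cohesin, had a median of 267 (258 to 270) over the 6916 with a motif and no Rad21 peak. On each of the 19 chromosomes the median score of members was below that of TAD anchors with Rad21, and the share of TAD anchors that were members ranged from 4.29% on chromosome 15 to 9.90% on chromosome 10.

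The motif differed less between these groups than CTCF binding did. The motif score, a log-odds score of the match, had a median of 16.4 (15.8 to 16.7) in members and 17.8 (17.6 to 17.9) in TAD anchors with Rad21, and the distance between their curves was 0.179. Of the members, 65.9% (61.4 to 70.2) lay under the median motif score of TAD anchors with Rad21. The median was 15.97 over all listed sites with a motif, below that of members. It was 16.4 in intra-TAD anchors without Rad21 and 15.4 in lone CTCF sites. In the bin of scores under 500 the medians were 15.4 in members and 15.6 in TAD anchors with Rad21. In the bin of 500 to under 1000 the median of members, 17.1, was above that of TAD anchors with Rad21, 15.7. The members with the highest motif scores were an intergenic site nearest 4921507P07Rik with a motif score of 24.98 and a CTCF score of 1213, and an intergenic site nearest Ephb2, a receptor tyrosine kinase, with a motif score of 24.2 and a CTCF score of 334. A site in a UTR exon of Mosc1 had a motif score of 24.0 and a CTCF score of 1888, and a site in an intron of Chrna1, a subunit of the muscle acetylcholine receptor, had a motif score of 23.8 and a CTCF score of 420. None of these 4 overlapped Stag2, and 1 of them overlapped Stag1.

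Overlap with other cohesin subunits was measured in public ChIP-seq data of liver from other laboratories, which the class list marks by site. Stag2 was found at 242 of 440 members, 55.0% (50.3 to 59.6), against 98.6% (98.3 to 98.9) of TAD anchors with Rad21 and 88.3% of all listed sites. Stag1 was found at 149 members, 33.9% (29.6 to 38.4), against 94.6% and against 70.8% of all sites. At least one of them was found at 269 members, 61.1% (56.5 to 65.6), although no Rad21 peak was listed there. Neither was found at 171 members, 38.9% (34.4 to 43.5), against 0.947% of TAD anchors with Rad21 and 10.7% of all sites. The shares in members were nearer to those of the other sites without Rad21, which were 47.7% for Stag2 and 28.2% for Stag1 in intra-TAD anchors without Rad21 and 50.2% and 22.9% in lone CTCF sites. In all, the interval of Stag1 in lone CTCF sites, 22.0 to 24.0, did not overlap that of members. For Stag1, members and lone CTCF sites had 31.3% (25.4 to 37.8) and 20.8% (19.7 to 21.9) at CTCF scores under 500, where the intervals did not overlap either. They had 37.1% (30.0 to 44.8) and 28.1% (25.5 to 31.0) at CTCF scores of 500 to under 1000, with intervals that overlapped, and 34.3% and 38.7% at scores of 1000 or more. Scores were unlike in the bin under 500, with medians of 339 in members and 221 in lone CTCF sites. The Stag1 share of lone CTCF sites rose with score, so the gap in that bin is not one at like scores.

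Top2b was rare in members. It was found at 27 members, 6.14% (4.25 to 8.78), against 76.4% (75.2 to 77.5) of TAD anchors with Rad21 and 55.1% of all sites. It was found at 9.06% of intra-TAD anchors without Rad21 and at 5.29% of lone CTCF sites, and the intervals of both overlapped that of members. All 27 members with Top2b also had Stag2. Of the 171 members without Stag1 and Stag2, 0 had Top2b, which allows a share of up to 1.75%, while Top2b was at 10.04% (6.99 to 14.2) of the 269 members with at least one Stag protein. With a 50% reciprocal overlap as the condition for a shared Rad21 peak, Top2b was at 18.8% of sites without Rad21, and with Rad21 and CTCF summits within 100 bp at 25.4%. In all, 113 members had Stag2 alone, 102 had Stag1 and Stag2, 27 had Stag1 alone, 20 had all 3 and 7 had Stag2 and Top2b.

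The difference in Stag2 was present at like CTCF scores. In the bin under 500, where the median CTCF score was 339 in members and 364 in TAD anchors with Rad21, Stag2 was at 53.6% (46.8 to 60.2) of 211 members and at 93.3% (89.5 to 95.9) of 240 TAD anchors with Rad21. Stag1 was at 31.3% and 77.1% in this bin, and Top2b at 3.79% and 33.8%, so that the gap in percent was widest for Stag1 and narrowest for Top2b. In the bin of 1000 or more, Stag2 was at 64.3% (52.6 to 74.5) of 70 members and at 99.3% of 4530 TAD anchors with Rad21, but there the median scores were 1437.5 and 3013. Stag1 was at 34.3% and 96.4% in that bin and Top2b at 11.4% and 82.6%, so that the gap was widest for Top2b. On each of the 19 chromosomes the Stag2 share was lower in members. The depth of the public libraries is not given in the sources used here.

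**Figure D2:**
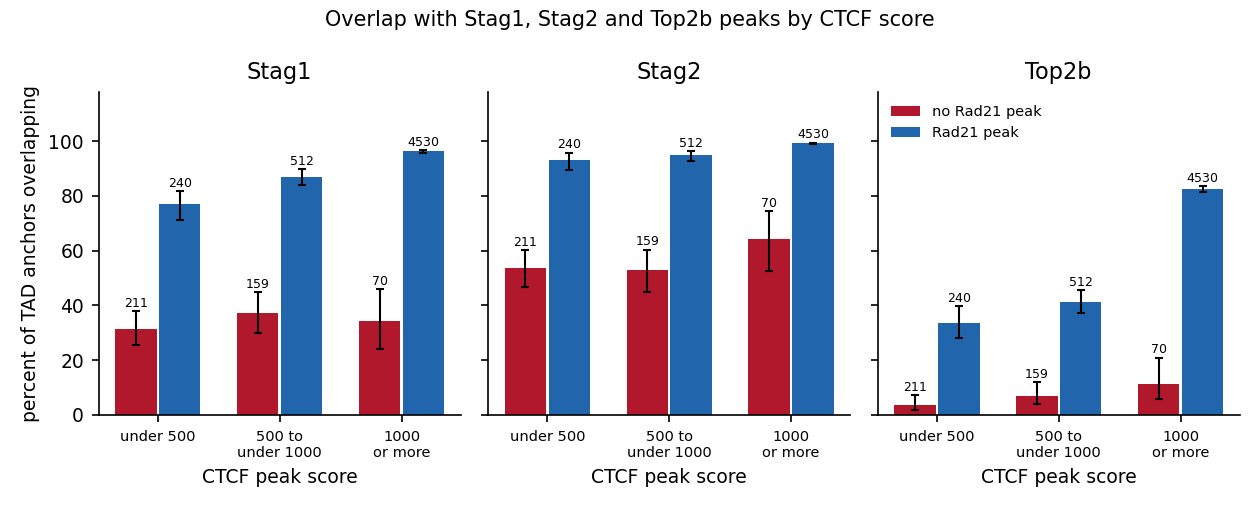
Percent of TAD anchors that overlap a Stag1, Stag2 or Top2b peak, in 3 bins of CTCF peak score, without a Rad21 peak (red) and with one (blue), with Wilson 95% intervals as error bars and the number of sites above each bar. In each bin and for each protein the red bar is lower and its interval does not reach that of the blue bar, as with Stag2 at 53.6% and 93.3% in the bin under 500.

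Of the 8 members with the highest CTCF score, 6 had a local background above the upper quartile of members, 13.5 fragments. The local background is the number of fragments that the peak caller expected at the summit from the surrounding reads. These 8 sites were chosen by score, and background was highest at scores of 1000 or more in TAD anchors with Rad21 as well. The count of 6 therefore does not set members apart. The member in an intron of Pfdn4, a prefoldin subunit that helps fold cytoskeletal proteins, had the highest CTCF score of 9896 with 1138 fragments, against a background of 59.4 fragments. It lay 81 bp from the transcription start, overlapped Stag2 but not Stag1 or Top2b, and was 1716 bp from the nearest Rad21 peak. The intergenic site nearest Trim29 had a score of 5709, the site nearest Tlx1, a homeobox factor, had 3801, and the site nearest Fli1, an ETS factor, had 3207, and none of them overlapped Stag1, Stag2 or Top2b. Their backgrounds were 37.3, 29.5 and 22.7 fragments, and the nearest Rad21 peaks lay 2125, 1567 and 4213 bp away. The median background was 7.59 fragments over all members and 14.01 over TAD anchors with Rad21. At like low scores the medians were 7.08 and 7.07 under 500 and 7.12 and 8.16 at 500 to under 1000. In the bin of 1000 or more they were 10.8 and 14.9.

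The other 4 of the 8 strongest members lay at unlike distances from Rad21. The site in an intron of Dmbt1, which encodes a secreted glycoprotein, had a CTCF score of 2988 over a background of 11.0 fragments, overlapped Stag1 and Stag2, and was 69446 bp from the nearest Rad21 peak. The site in an intron of Kctd9 had a score of 2729, overlapped Stag2 and Top2b, and was 48124 bp from a Rad21 peak. It lay at a gap in the numbering of the Rad21 peaks, where at least 1 number is skipped, so a Rad21 peak that is not in the list may have been called there. The site in an intron of Erc2, a scaffold of presynaptic terminals, had a score of 3136 with Stag2 alone and lay 3606 bp from a Rad21 peak. The site in an intron of Synpo2, an actin-binding protein, had a score of 2562 with Stag1 and Stag2 and lay 1180 bp from one. A gap in the numbering lay at 13 of the 440 members, 2.95% (1.74 to 4.99), against 0.909% of TAD anchors with Rad21 and 0.859% of all listed sites. It was at 1.42% (1.16 to 1.72) of lone CTCF sites and 1.05% (0.356 to 3.03) of intra-TAD anchors without Rad21, and the latter interval overlapped that of members.

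Among members with all 3 of Stag1, Stag2 and Top2b, the highest scores were 2345 at Polr2i, a subunit of RNA polymerase II, and 1938 in an intron of Ifih1, a sensor of viral RNA. Next were 1717 in an intron of Adamts9, a metalloprotease, and 1532 at an intergenic site nearest Ndufa4. The Polr2i site also lay at a gap in the Rad21 numbering. The lowest CTCF scores were 120 in an intron of Prpf18, a splicing factor, and 162 at both a site in an intron of Skap1 and a site in an intron of Tmed11. The first and second of these overlapped Stag2.

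The shared 12-base word set many members apart from TAD anchors with Rad21. It was found as the commonest word at these positions among lone CTCF sites, after the values had been seen, and was also the commonest in members and in TAD anchors with Rad21. It was in 119 members, 27.0% (23.1 to 31.4), and in 266 TAD anchors with Rad21, 5.04% (4.48 to 5.66), against 12.1% of all listed sites with a motif. Its share was 27.5% (22.7 to 33.0) in intra-TAD anchors without Rad21 and 30.4% (29.3 to 31.5) in lone CTCF sites, and the intervals of both overlapped that of members. The second most common word was in 10 members. The share of the shared word was higher in members than in TAD anchors with Rad21 on each of the 19 chromosomes.

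The word was also more frequent in members in both bins of lower score. In the bin under 500 it was in 31.8% (25.8 to 38.3) of members and 15.4% (11.4 to 20.5) of TAD anchors with Rad21, and in the bin of 500 to under 1000 in 25.8% and 9.38%. In the bin of 1000 or more it was in 15.7% (9.01 to 26.0) and 3.996% (3.46 to 4.61), but scores are unlike there, with medians of 1437.5 and 3013, and the share fell with score in both groups. Base frequencies also differed, in part apart from the word. At motif position 8, A was found in 44.5% of members and 22.0% of TAD anchors with Rad21, and at position 12, G in 76.8% and 56.3%. Without the 119 sites, the share of A at position 8 was 24.0% and the share of G at position 12 was 68.2% in the remaining members. At position 17, which is outside the word, T was in 26.4% of members, in 16.5% of those without the word and in 7.93% of TAD anchors with Rad21.

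**Figure D3:**
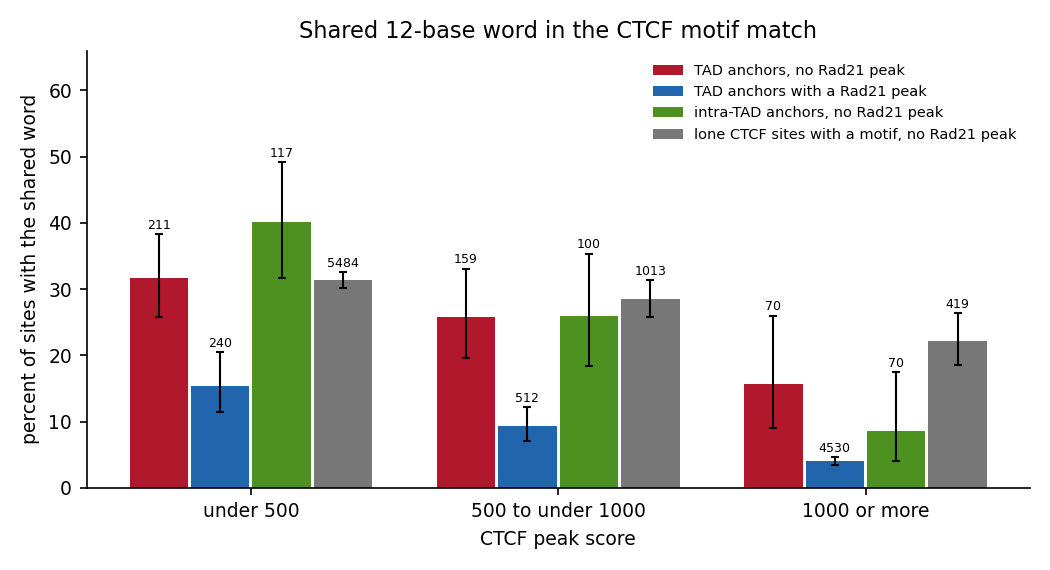
Percent of sites whose motif match holds the shared 12-base word, in 3 bins of CTCF peak score, for TAD anchors without and with Rad21, intra-TAD anchors without Rad21 and lone CTCF sites, with Wilson 95% intervals and the number of sites above each bar. Members exceed TAD anchors with Rad21 in each bin, with 31.8% and 15.4% in the bin under 500.

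Members with the word were less often bound by Stag1 and Stag2. Stag2 was at 52 of the 119, 43.7% (35.1 to 52.7), and at 59.2% (53.7 to 64.4) of the 321 members without the word. Stag1 was at 23.5% (16.8 to 31.9) and 37.7% (32.6 to 43.1). Top2b was at 0 of the 119, which allows a share of up to 2.52%, and at 8.41% (5.84 to 11.96) of the 321. The median CTCF scores were 459 (387 to 508) and 537 (495 to 574), with intervals that overlapped, and the motif scores were 16.4 and 15.8. Within the bin under 500, Stag2 was at 35.8% (25.4 to 47.8) of the 67 members with the word and at 61.8% (53.7 to 69.3) of the 144 without it. Stag1 was at 17.9% (10.6 to 28.7) and 37.5% (30.0 to 45.6) of them, and Top2b at 0 of 67, which allows up to 4.48%, and 5.56% (2.84 to 10.6), a difference that was not detectable. TAD anchors with Rad21 and the word had Stag2 at 94.7% (91.4 to 96.8), and those without the word at 98.8% (98.5 to 99.1). The other proteins were also less frequent with the word there, with Stag1 at 84.6% and 95.2% and Top2b at 37.6% and 78.4%, and in lone CTCF sites Stag2 was at 40.5% with the word and 54.4% without it.

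The sequence around the word occurred many times in the genome. Copies were counted for every stretch of 16 bases in the motif and the 60 bases on either side, as exact matches on both strands. The median over these stretches, taken per site, had a median of 14.5 (9.5 to 21.5) in members with the word and 3 in the other members. Among sites with the word it was 7 (6 to 8) in TAD anchors with Rad21 and 26.75 (23 to 32) in lone CTCF sites, and it was 3 in TAD anchors with Rad21 without the word. At least 20 copies were found at 71 members, 16.1% (12.99 to 19.9), against 1.51% of TAD anchors with Rad21 and 6.45% of all listed sites with a motif. The other sites without Rad21 had 13.9% (10.4 to 18.4) in intra-TAD anchors, overlapping the interval of members, and 21.1% (20.2 to 22.1) in lone CTCF sites. Of these 71 members, 53 held the word, 44.5% (35.9 to 53.5) of the members with it, and 22.9% (18.3 to 28.3) of TAD anchors with Rad21 and the word had as many copies. Stag2 was at 35.2% (25.1 to 46.8) of the 71 and at 58.8% (53.7 to 63.7) of the other 369, and their median CTCF scores were 401 (344 to 478) and 544 (502 to 576). The most copies were found at the Psmd4 site, with a median of 13709, and at a site nearest Ikbkb, with 9723.5. As background, the B2 family of short interspersed repeats in rodents is known to carry CTCF motifs. No repeat annotation was used here, so no site was assigned to a family. The authors kept uniquely mapped reads, which are fewer in repeated sequence, and the part of mappability in these shares was not tested.

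**Figure D4:**
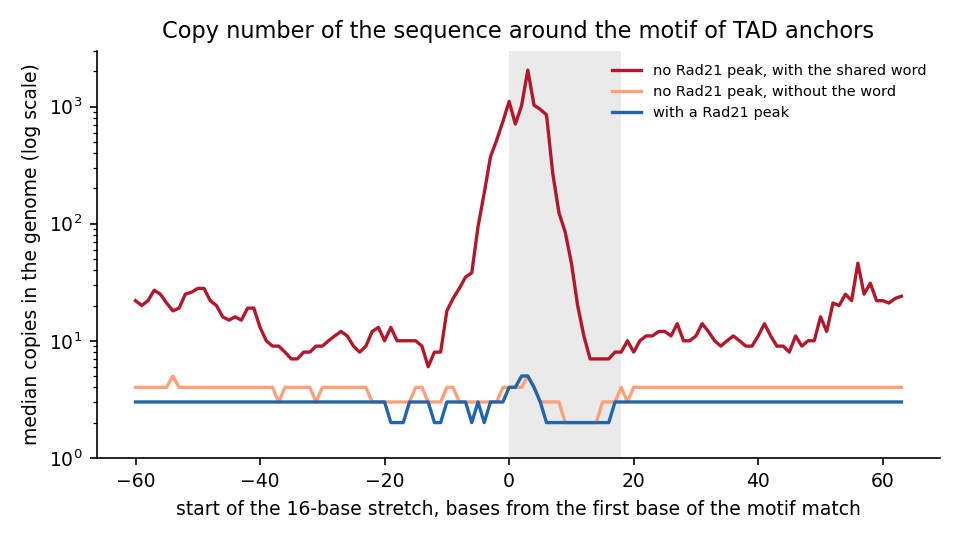
Median number of exact copies in the genome, on a log axis, of each 16-base stretch against the position of its first base relative to the motif match (grey band), for members with the shared word, members without it and TAD anchors with Rad21. The curve of members with the word peaks at the motif and stays above the other curves over the 60 bases on either side.

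Since the rule keeps sites that share no base with a Rad21 peak, distances to Rad21 are given as a description. The nearest Rad21 peak to members was at a median distance of 6696.5 bp (5685 to 7968), with quartiles of 2649 and 16160 bp and a range from 66 to 237369 bp. Over all listed sites, of which 18.2% have no Rad21 peak of their own, the nearest Rad21 peak that shares no base lay at a median of 6660 bp. That median was 8966 bp (8653 to 9256) in TAD anchors with Rad21, 3450 bp (2796 to 4092) in intra-TAD anchors without Rad21 and 7453 bp (7143 to 7817) in lone CTCF sites. The nearest peak of members shared bases with a CTCF peak at 408 members, 92.7% (89.9 to 94.8), against 77.1% of all Rad21 peaks on these chromosomes. The share was not measured for the nearest Rad21 peaks of the other groups, so whether it sets members apart was not tested. Just inside the rule were a site in an intron of Zscan2, 66 bp from a Rad21 peak, a site in an intron of Bcat1, which encodes a branched-chain aminotransferase, at 171 bp, and a site in an intron of Ccdc28a at 319 bp. Just outside it were the TAD anchors nearest Ifltd1, in an intron of Gpam and nearest Hps1, which shared 35, 77 and 117 bp with a Rad21 peak whose score was 39, 26 and 111.

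Local CTCF background and the Stag2 share of members differed between bins of this distance. The median local CTCF background was 14.8 fragments at the 40 members within 1 kb of a Rad21 peak and 18.9 at the 66 members at 1 to 2.5 kb. It was 5.99 at the 90 members at 10 to 20 kb and at the 84 members at 20 kb or more, which is near the lowest value in members. Stag2 was at 35.0% (22.1 to 50.5) of the members within 1 kb and at 65.5% (54.8 to 74.8) of those at 20 kb or more, and these intervals did not overlap. Stag1 was at 22.5% (12.3 to 37.5) and 38.1% (28.4 to 48.8), with intervals that overlapped. The median CTCF score was 528 and 520 in these bins. This background is that of the CTCF libraries, and the background of the Rad21 libraries at members was not analysed here. It is taken from surrounding reads, and the nearest Rad21 peak shared bases with a CTCF peak at 92.7% of members. A higher background near Rad21 can therefore follow from how it is computed. Whether these changes set members apart was not tested, since no other group was binned by distance.

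**Figure D5:**
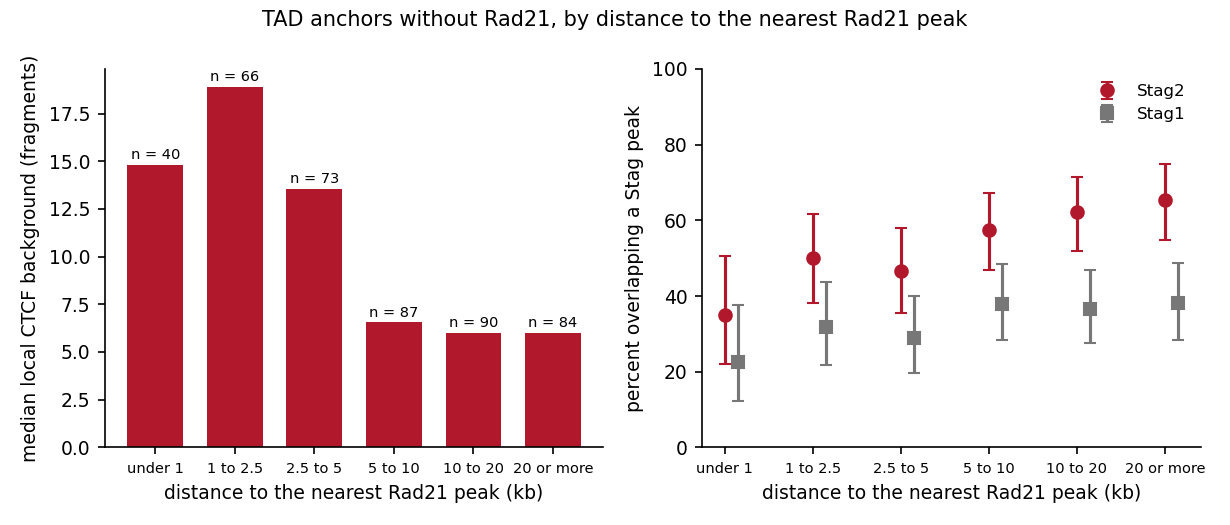
Median local CTCF background in fragments (left) and percent of members that overlap a Stag2 or Stag1 peak with Wilson 95% intervals (right), by distance from the member to the nearest Rad21 peak in kb, with the number of members above each bar. The background falls from 14.8 fragments under 1 kb to 5.99 at 20 kb or more, while the Stag2 share is 35.0% and 65.5%.

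The neighbouring TAD anchor had a Rad21 peak about as often at members as at other listed sites. The nearest other TAD anchor had a Rad21 peak at 397 members, 90.2% (87.1 to 92.7), against 91.9% (91.1 to 92.6) of TAD anchors with Rad21 and 91.9% of all listed sites, with intervals that overlap. It had the higher CTCF score at 390 members, 88.6% (85.3 to 91.3), against 45.2% (43.9 to 46.6) and 72.8% of all listed sites. At like low scores it did so about equally often, with 96.2% and 97.9% in the bin under 500 and 89.3% and 85.2% in the bin of 500 to under 1000, and in the bin of 1000 or more the shares were 64.3% and 37.9%. It lay under 50 kb away at 363 members, 82.5% (78.7 to 85.8), against 70.8% (69.6 to 72.1) and 31.3% of all listed sites, and the median distances in the first 2 groups were 22595.5 and 28319 bp. In the bin under 500 the shares under 50 kb were 79.6% in members and 80.0% in TAD anchors with Rad21. They were 86.2% (79.9 to 90.7) and 78.9% (75.2 to 82.2) in the bin of 500 to under 1000, with intervals that overlapped, and 82.9% (72.4 to 89.9) and 69.4% (68.1 to 70.8) in the bin of 1000 or more, without overlap. Of these 363 pairs, 362 had divergent motifs, an arrangement that the authors' choice of TAD anchors favours. Members were neighbours of each other in 37 of 5703 pairs of adjacent TAD anchors, and the longest run held 3.

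The nearest other Rad21 peak lay on the 3′ side of the motif, which faces the loop, at 39.3% (34.9 to 44.0) of members and 44.9% (43.6 to 46.3) of TAD anchors with Rad21, with intervals that overlapped narrowly, and at 47.4% of all listed sites and 51.6% (45.8 to 57.3) of intra-TAD anchors without Rad21. Where another TAD anchor lay under 50 kb away the 3′ shares were 38.3% (33.4 to 43.4) in members and 39.6% (38.0 to 41.1) in TAD anchors with Rad21, with intervals that overlapped. At the sites without such a neighbour they were 44.2% (33.6 to 55.3) over 77 members and 58.0% (55.5 to 60.4) over 1540 TAD anchors with Rad21, with intervals that did not overlap.

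Members were found in introns more often than TAD anchors with Rad21 over all scores, with intervals that overlapped at like low scores. The summit lay in an intron at 227 members, 51.6% (46.9 to 56.2), against 37.1% (35.8 to 38.4) and 41.7% of all listed sites. It lay between genes at 177 members, 40.2% (35.7 to 44.9), against 53.7% (52.3 to 55.0) and 41.7% of all listed sites. In the bin under 500 the intron shares were 51.2% (44.5 to 57.8) and 45.8% (39.6 to 52.2), and in the bin of 500 to under 1000 they were 50.3% and 44.9%, with intervals that overlapped. The intergenic shares were 41.2% and 41.7%, and 41.5% and 43.2%, in these bins. In the bin of 1000 or more, introns held 55.7% (44.1 to 66.8) and 35.8% (34.4 to 37.2). Of the lone CTCF sites, 50.9% lay in introns. A CpG, the dinucleotide that carries DNA methylation in mammals, was in the motif match of 166 members, 37.7% (33.3 to 42.3), against 43.2% (41.9 to 44.6) of TAD anchors with Rad21 and 44.5% of all sites with a motif. In the bin under 500 these shares were 29.9% and 30.4%. The direction turned in the bin of 500 to under 1000, with 43.4% (35.9 to 51.2) in members and 31.6% (27.8 to 35.8) in TAD anchors with Rad21, and the shares were 48.6% and 45.2% in the bin of 1000 or more. The most common place was motif positions 15 and 16, with a CpG in 30.9% of members and 32.1% of TAD anchors with Rad21.

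Few members lay at promoters. A protein-coding transcription start lay within 1 kb of 13 members, 2.95% (1.74 to 4.99), against 10.9% (10.1 to 11.7) of TAD anchors with Rad21 and 21.9% of all listed sites. In the bin under 500 the shares were 1.90% (0.740 to 4.77) and 14.6% (10.7 to 19.6), and in the bin of 500 to under 1000 they were 3.14% (1.35 to 7.15) and 16.2% (13.3 to 19.7). In the bin of 1000 or more they were 5.71% (2.24 to 13.8) and 10.1% (9.22 to 11.0), with intervals that overlapped. Other sites without Rad21 had 5.92% (3.73 to 9.28) in intra-TAD anchors, overlapping the interval of members, and 6.95% (6.38 to 7.58) in lone CTCF sites. Within 5 kb of a start lay 19.3% (15.9 to 23.3) of members and 21.7% (20.6 to 22.8) of TAD anchors with Rad21, against 33.7% of all listed sites, so the difference seen at 1 kb was not found at 5 kb. The direction turned when Rad21 and CTCF summits within 100 bp were required for a shared peak, with 19.9% (17.0 to 23.2) of 637 sites without Rad21 and 9.05% of the others near a start, and with a 50% reciprocal overlap the shares were 11.3% and 10.1%. After Pfdn4 and Polr2i, the highest CTCF scores among them were 1557 at Nop56, a core protein of small nucleolar ribonucleoproteins, 1021 at 4930534B04Rik, 907 at Cdc34, a ubiquitin-conjugating enzyme, and 623 at Pcdhb3, a protocadherin. Lower scores were 553 at Zfyve26, 522 at Gm11129, 521 at H2afy2, a histone variant, and 357 at Pcdh7, also a protocadherin. Of these 10, 9 overlapped Stag2, the exception being Gm11129, whose site holds the shared word, and 4 overlapped Top2b. Stag2 was at 55.0% of all members and 88.3% of all listed sites, and Top2b at 6.14% and 55.1%. The 10 were chosen by score from the 13 members near a start, so these counts are a description only.

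The counts of listed genes near members were too small to set apart from those near TAD anchors with Rad21. Of the starts of 37 hepatocyte genes, 17 genes of the CTCF and cohesin machinery, 16 housekeeping genes and 18 circadian clock genes, 0 lay within 10 kb of a member, and 5, 5, 2 and 4 of the 5282 TAD anchors with Rad21 lay that near, shares of 0.0947%, 0.0947%, 0.0379% and 0.0757%. A count of 0 in 440 members allows a share of up to 0.682%, above each of these shares. Of 21 imprinted genes, 1 start lay within 10 kb, against 0.0947% of TAD anchors with Rad21 near a start of this list. It was that of Kcnq1, a potassium channel gene of an imprinted cluster. The member lay 2613 bp from this start in an intron, with a CTCF score of 1437, a background of 32.5 fragments and Stag1 but not Stag2 or Top2b, and the nearest Rad21 peak, 2208 bp away, had a score of 8925.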

How the data were processed

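The reads of the 4 CTCF and of the 3 Rad21 libraries were each merged by the authors, who mapped them to mm9 with Bowtie2, kept uniquely mapped reads, called peaks with MACS2, and left out blacklisted regions and peaks of duplicate reads. Each deposited score equals 10 times the −log10 of its q-value. The deposited fold is the ratio of fragments to local background at the summit, with a pseudocount of 1 on both, and the deposited −log10 p is the Poisson p-value of the same count. Fragments and background were recovered from the fold and the −log10 p, with a whole count (within 0.02) at 99.994% of listed sites. The deposited motif score is the authors' log-odds score, and a rescan with their matrix gave the deposited strand at all 440 members and a score within 0.0766. Columns of overlap with Stag1, Stag2 and Top2b have no header, and their order follows the study's listing. The authors chose TAD anchors by a motif, presence in all CTCF libraries, distance to a TAD boundary and motif strand, so these properties are no findings.

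The members and lists were chosen with earlier results of these data known. Sites were grouped by class and Rad21 overlap. No test was run, since pooled peaks hold no replicates. Shares carry Wilson and medians order-statistic binomial 95% intervals, and a count of 0 is given with the limit of 3 counts. The lists give no depth per library, and the study states only a range of reads per sample.

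Genes came from GENCODE vM1. Distances were measured from the CTCF summit to a start and from peak edge to peak edge for Rad21. The named regions were the 8 members of highest CTCF score, the 4 highest with none and the 4 highest with all of Stag1, Stag2 and Top2b, the 3 nearest to Rad21 and the 3 TAD anchors that share fewest bases with it, the 3 of lowest CTCF score, the 4 of highest motif score, the 10 highest within 1 kb of a start and members within 10 kb of a listed gene. The sites with the shared word were named after their values were seen. Functions were tested on simulated data. Software was pandas 2.3.3, NumPy 2.4.6, Numba 0.67.0, SciPy 1.17.1 and Matplotlib 3.10.9 under Python 3.11.15.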

Additional observations from a re-analysis of the deposited data

How the results depend on the processing

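Of 123 values under alternative settings, 91 stayed within the interval of the reported value, or within 1.5 times the reported number of members. Keeping only sites with the deposited motif strand in the rescan removed none of the 440 members, so those values could not move. They are counted among the 91. The numbers of members of 626 with a 50% reciprocal overlap and 637 with summits within 100 bp also counted as within the limit. With Rad21 peaks of a score of 100 or more alone, there were 768 members, with Stag2 at 69.1%, Stag1 at 46.7%, Top2b at 13.3% and neither Stag protein at 26.0%. The share under the median CTCF score of TAD anchors with Rad21 was then 96.5%, the share within 1 kb of a start 7.03% and the median distance to Rad21 1452 bp. With a 50% reciprocal overlap, these values were 66.6%, 47.0%, 18.8%, 28.6%, 91.1%, 11.3% and 3128 bp, and the shared word was in 22.7%. With summits within 100 bp, they were 68.0%, 46.8%, 25.4%, 27.5%, 91.1%, 19.9% and 2890 bp, the word was in 21.2% and a CpG in 45.8%. With CTCF scores of 500 or more alone, there were 229 members, with 58.1% under the median motif score, a CpG in 45.0% and the word in 22.7%. A window of 5 kb gave 19.3% near a start, against 21.7% of TAD anchors with Rad21, and starts of all genes gave 6.82%, against 13.7%. Leaving out members with the word, an alternative chosen after seeing the data, gave 34.3% with neither Stag protein. The stricter definitions count overlapping Rad21 peaks as absent by construction. Adding chromosome X, leaving out chromosome 2 or counting Rad21 peaks within 1 kb as shared moved none of the values out of their intervals. In every definition of a shared peak, Stag2 and Top2b were less frequent without Rad21 than with it. No paired analysis was possible because the pooled lists hold no values per library. Pooled lists show neither the variation between mice nor cohesin too weak for a call, which limits all values.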
